A study of Drosophila melanogaster with 4 samples.

Results

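Larval serum proteins, fat body proteins and yolk proteins are bulk products of the insect fat body, the organ that combines the roles of liver and adipose tissue. The 9 genes described here were chosen by symbol: the larval serum protein genes Lsp1alpha, Lsp1beta, Lsp1gamma and Lsp2, the fat body protein genes Fbp1 and Fbp2, and the yolk protein genes Yp1, Yp2 and Yp3. Of these, 6 were listed in the values analysed, with 13 transcripts, among 12116 listed genes with 21529 transcripts. Lsp1gamma, Yp1 and Yp2 were not analysed here, so no level is given for them.

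Whole wandering Drosophila melanogaster larvae of the third instar were compared between 2 genotypes. The hsromega66 larvae were homozygous for a mutant allele of Hsromega, a long noncoding RNA gene. The control larvae were of the wild-type stock Oregon R+. Total RNA of 5 larvae went into each library, with 2 libraries per genotype, and the labels do not give the sex of the larvae. The authors deposited 1 FPKM (fragments per kilobase of transcript, scaled to the mapped fragments of the library) for each transcript, pooled within a genotype. There is thus no spread between libraries to set beside any value, and the sequencing depth is unknown. Hsromega itself was listed at 0.290 FPKM in hsromega66 larvae and 232 FPKM in control larvae, with a lowest q of 0.998 in the authors' deposited table.

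The larval serum proteins are hexamerins, storage proteins that the fat body secretes into the haemolymph during larval feeding and takes back before pupariation as amino acid stores for metamorphosis. Fbp1 encodes the fat body protein proposed as the receptor for this uptake, and its transcription late in the third instar is a textbook response to the steroid hormone ecdysone. Fbp2 encodes a relative of alcohol dehydrogenase that accumulates in the late larval fat body. Yolk proteins are related to lipases. They are known mainly from adult females, where fat body and ovarian follicle cells make them for uptake into the oocyte. In the fat body their genes are under the control of the sex-determination factor Doublesex.

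In the annotation the 3 Lsp1 genes share one layout, a single intron that follows 210 coding bases in Lsp1alpha and Lsp1beta and 207 in Lsp1gamma. The predicted proteins have 816 residues for Lsp1alpha, 789 for Lsp1beta and 772 for Lsp1gamma. Lsp2, at 701 residues, has no intron. The yolk proteins are shorter, with 439 residues for Yp1, 442 for Yp2 and 420 for Yp3. Yp1 and Yp2 have 1 intron, lie 1175 bp apart and are transcribed away from each other, whereas Yp3 has 2 introns and lies elsewhere on the X chromosome. Fbp2 encodes 256 residues in each of its 3 annotated transcripts.

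Of the 6 listed genes 1 changed: Yp3, which rose in hsromega66 larvae, by a q of at most 0.05 in the authors' deposited table for at least 1 transcript. Over all listed genes 2.31% passed this threshold, 1.4% as rises and 0.908% as falls, and over all transcripts 1.31% did. Yp3 was also the 1 gene of the 6 at a q of at most 0.1, which 2.83% of all genes reached, and at a p of at most 0.05 with a deposited log2 ratio of at least 2 in size, which 1.68% reached. That ratio has no pseudocount, stands at 2.02 for Yp3 in the authors' deposited table, and was used only where it is finite. The other 5 genes, all larval serum or fat body proteins, had log2 ratios between -0.24 and 0.017, given here and below, unless called deposited, on the log2(FPKM + 1) scale as hsromega66 minus control. The median over the 6 genes was -0.064, beside -0.013 over all 12116 genes. RNA came from whole larvae, so fewer fat body cells and less RNA per cell cannot be told apart.

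**Figure D1:**
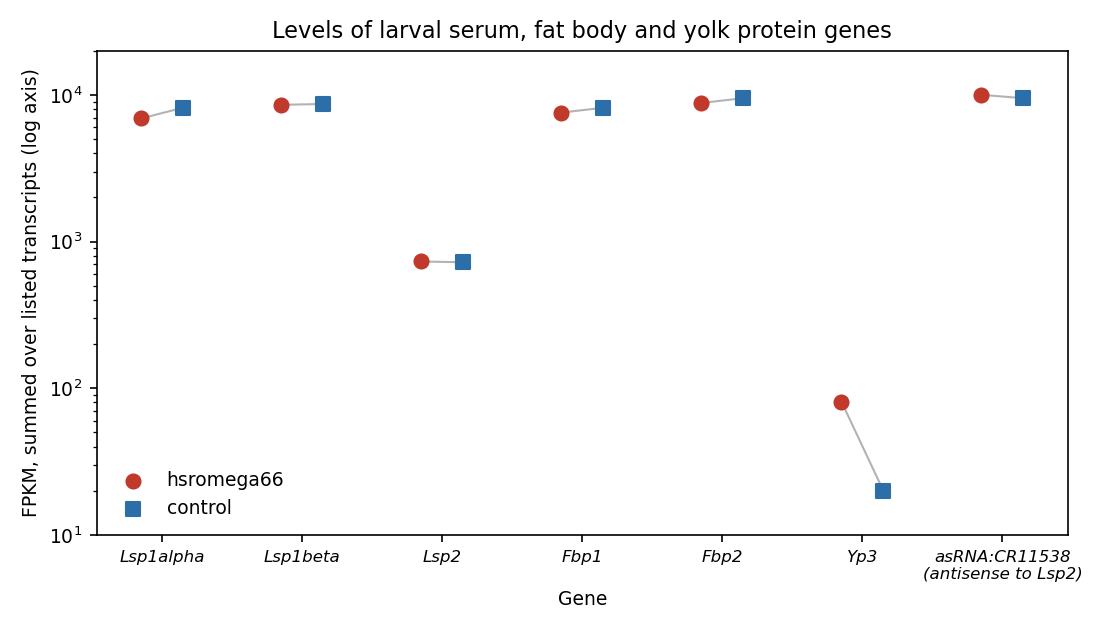
FPKM of each gene, summed over its listed transcripts, on a log axis, in hsromega66 larvae (circles) and control larvae (squares), 1 pooled value per genotype and no error bars. Yp3 stands at 81.0 FPKM in hsromega66 and 19.9 FPKM in control larvae, and the antisense gene at the Lsp2 locus stands as high as the Lsp1 genes.

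Lsp1alpha and Lsp1beta encode subunits of the same hexameric serum protein, and both were among the most abundant RNAs of the larvae. Lsp1alpha (FBgn0002562; X, plus strand, 12490291 to 12492982, dm6) was listed at 6915 FPKM in hsromega66 larvae and 8187 FPKM in control larvae through its only annotated transcript. It held rank 21 of all genes by level in hsromega66 and rank 19 in control larvae. Its log2 ratio of -0.24 was the lowest of the 6 genes, with a p of 0.685 and a q of 0.998 in the authors' deposited table. Lsp1alpha is known as an X-linked gene that escapes dosage compensation, the process that raises X transcription in males. The 1862 X-linked genes had a median log2 ratio of 0.038 and the 10140 autosomal genes one of -0.022. The value of Lsp1alpha lay below both, and a part of dosage compensation in it was not tested.

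Lsp1beta (FBgn0002563; 2L, plus strand, 898500 to 901316, dm6) stood at 8559 FPKM in hsromega66 and 8671 FPKM in control larvae, at rank 12 in hsromega66 and rank 17 in control larvae. The log2 ratio was -0.019. Nearly all of this level came from 1 of its 2 listed transcripts, at 8558 FPKM in hsromega66 and 8669 FPKM in control larvae (p = 0.973 and q = 0.998 in the authors' deposited table). The other transcript was listed at 0.776 FPKM in hsromega66 and 2.20 FPKM in control larvae. Lsp1beta was thus 1.24 times the level of Lsp1alpha in hsromega66 larvae and 1.06 times in control larvae. Lsp1alpha supplied 44.7% of the sum of both genes in hsromega66 larvae and 48.6% in control larvae. Without values per library this difference in make-up could not be tested. Reads shared between these related genes could also be divided differently, which was not tested.

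Lsp2 encodes the other larval hexamerin, which is assembled separately from the Lsp1 subunits. Lsp2 (FBgn0002565; 3L, plus strand, 12129393 to 12131869, dm6) was listed at 731 FPKM in hsromega66 larvae and 723 FPKM in control larvae, a log2 ratio of 0.017. Its 2 listed transcripts are both assigned to the annotated form with the longer 3′ end and were of unequal level. The more abundant stood at 525 FPKM in hsromega66 and 533 FPKM in control larvae, and the other at 207 FPKM in hsromega66 and 190.0 FPKM in control larvae. Their p-values were 0.978 and 0.947, and both q values were 0.998 in the authors' deposited table. By these rows Lsp2 made up 4.51% of the 3 listed serum protein genes in hsromega66 and 4.11% in control larvae. Lsp1beta exceeded it 11.7 times in hsromega66 and 12.0 times in control larvae.

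The low level of Lsp2 stands beside a far higher one on the opposite strand of the same locus. The noncoding gene asRNA:CR11538 (FBgn0017424; 3L, minus strand, 12129103 to 12131488, dm6) is a single exon of 2386 bases that overlaps 2096 bases of Lsp2 and covers 98.9% of its coding sequence. It was listed at 10013 FPKM in hsromega66 larvae and 9495 FPKM in control larvae (p = 0.895 and q = 0.998 in the authors' deposited table). This was 13.7 times the listed level of Lsp2 in hsromega66 and 13.1 times in control larvae. The library kit keeps strand, but the sources used here do not say whether counting used it, so reads from Lsp2 and from its antisense partner cannot be told apart. Summed, the locus stood at 10744 FPKM in hsromega66 and 10217 FPKM in control larvae, above each Lsp1 gene in both genotypes. Its log2 ratio of 0.073 differed little from that of Lsp2 alone. The order of Lsp2 below the Lsp1 genes therefore depends on this assignment. No transcript of either gene passed the threshold, and the summed locus has no deposited q and was not tested.

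**Figure D2:**
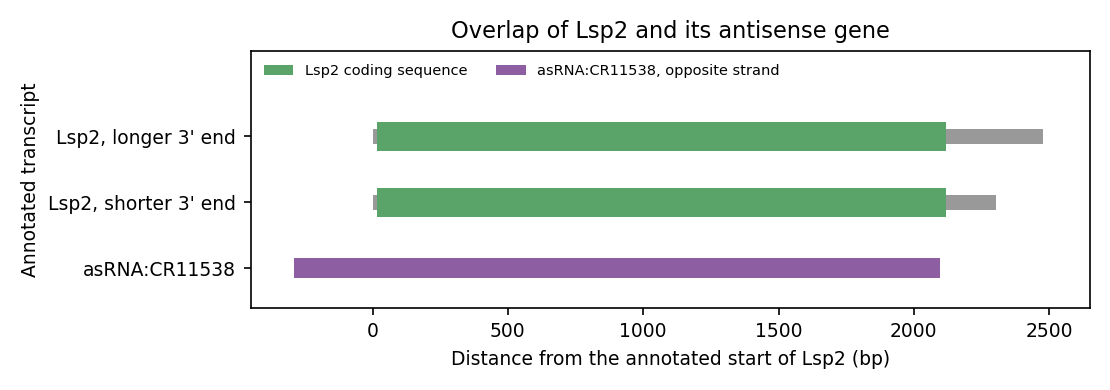
Annotated transcripts at the Lsp2 locus, drawn to scale by distance in bp from the annotated start of Lsp2, with the coding sequence of Lsp2 as thick bars and the gene on the opposite strand below. The antisense exon overlaps 2096 bases of Lsp2 and covers 98.9% of its coding sequence.

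Fbp1 (FBgn0000639; 3L, minus strand, 14094589 to 14098053, dm6) was listed at 7578 FPKM in hsromega66 larvae and 8174 FPKM in control larvae, a log2 ratio of -0.11. Its 3 annotated transcripts were all listed. The main one, whose protein has 1029 residues, stood at 6895 FPKM in hsromega66 and 7695 FPKM in control larvae. A form whose first coding exon is 6 bases shorter, and whose protein has 1027 residues, stood at 621 FPKM in hsromega66 and 427 FPKM in control larvae. The unspliced form stood at 61.1 FPKM in hsromega66 and 51.9 FPKM in control larvae. Their Cuffdiff p-values in the authors' deposited table were 0.814, 0.760 and 0.891 as listed here, and each q was 0.998. The main form thus held 91.0% of the gene's sum in hsromega66 and 94.1% in control larvae, and the alternative donor form held 8.20% in hsromega66 and 5.23% in control larvae. These forms share almost all of their sequence, and the split between them was not tested.

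Fbp2 (FBgn0000640; 2L, plus strand, 9426784 to 9427917, dm6) was the highest of the 6 genes in both genotypes, at 8813 FPKM in hsromega66 larvae and 9500.2 FPKM in control larvae, with a log2 ratio of -0.11. Its main transcript stood at 7551 FPKM in hsromega66 and 8841 FPKM in control larvae (p = 0.635 and q = 0.998 in the authors' deposited table). A further transcript was listed at 683 FPKM in hsromega66 larvae and at 0 in control larvae, and the authors' deposited table classes it as specific to the mutant. Its p of 0.0949 and q of 0.998 in that table did not pass the threshold. The table places 164 transcripts in this class, 0.762% of all, and this one was the most abundant of them. Of the 164, 7 had a q of at most 0.05 and 134 belonged to genes with another transcript above 0 in control larvae.

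Fbp2 was such a gene. All 4 of its listed transcripts were assigned to the same annotated transcript and the same splice pattern, and the main one held most of the level. Of the remaining pair, the more abundant stood at 546 FPKM in hsromega66 and 630.0 FPKM in control larvae, and the other at 33.6 FPKM in hsromega66 and 29.7 FPKM in control larvae. The class thus applies to 1 transcript and not to the gene. The sum over all 4 was no higher in hsromega66 than in control larvae. The main transcript held 85.7% of the sum in hsromega66 and 93.1% in control larvae. Without the transcript listed at 0, the log2 ratio of the gene was -0.22. The assembled locus ran 3135 bp past the annotated end of Fbp2, over neighbouring genes.

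**Figure D3:**
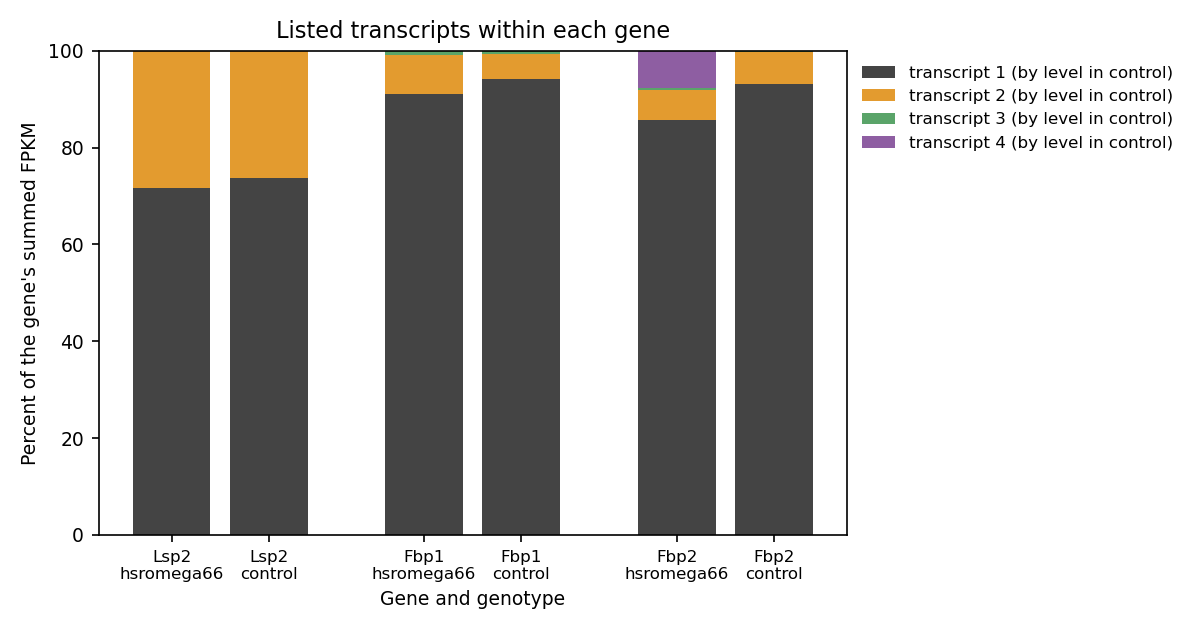
Percent of each gene's summed FPKM that its listed transcripts held, in hsromega66 (left bar of each pair) and control larvae (right bar), for the 3 genes with more than 1 transcript of appreciable level. The transcript of Fbp2 listed at 0 in control larvae holds 7.75% of the gene's sum in hsromega66 larvae, and the main transcript stays the largest in every bar.

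Together, Lsp1alpha, Lsp1beta, Lsp2, Fbp1 and Fbp2 summed to 32596 FPKM in hsromega66 larvae and 35255 FPKM in control larvae. This was 3.50% of all listed FPKM in hsromega66 and 3.63% in control larvae. Fbp2 was 1.16 times the level of Fbp1 in both genotypes. Fbp1 and Lsp1alpha exchanged places in the order of levels. Fbp1 was 1.10 times Lsp1alpha in hsromega66 larvae, and Lsp1alpha was 1.00 times Fbp1 in control larvae. Among the 4 genes above 5000 FPKM the highest was 1.27 times the lowest in hsromega66 larvae and 1.16 times in control larvae, and their order cannot be tested.

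The called changes among abundant transcripts are given for scale. They do not show how small a change could have been called. Among 28 transcripts with a mean of at least 5000 FPKM, 1 was called, with a deposited log2 ratio of 1.46 in size. Among 181 of at least 1000 FPKM, 8 were called, and the smallest deposited log2 ratio among them was 1.36 in size. Among 280 of at least 500 FPKM, the range that takes in the more abundant transcript of Lsp2 but not the other, 15 were called, and the smallest was 1.21 in size. Differences of the size seen in the summed levels of the serum and fat body protein genes were well below any called in a transcript at these levels. This sets gene sums with a pseudocount beside deposited ratios of single transcripts. Of the 28 genes with a mean of at least 5000 FPKM, 13 had a log2 ratio within 0.25 of 0, and over all genes the share was 58.3%. All 4 of the abundant genes here are among these 13. The window of 0.25 was not among the planned settings, and Lsp1alpha, at -0.24, lies just inside it. Nothing is concluded from this count.

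**Figure D4:**
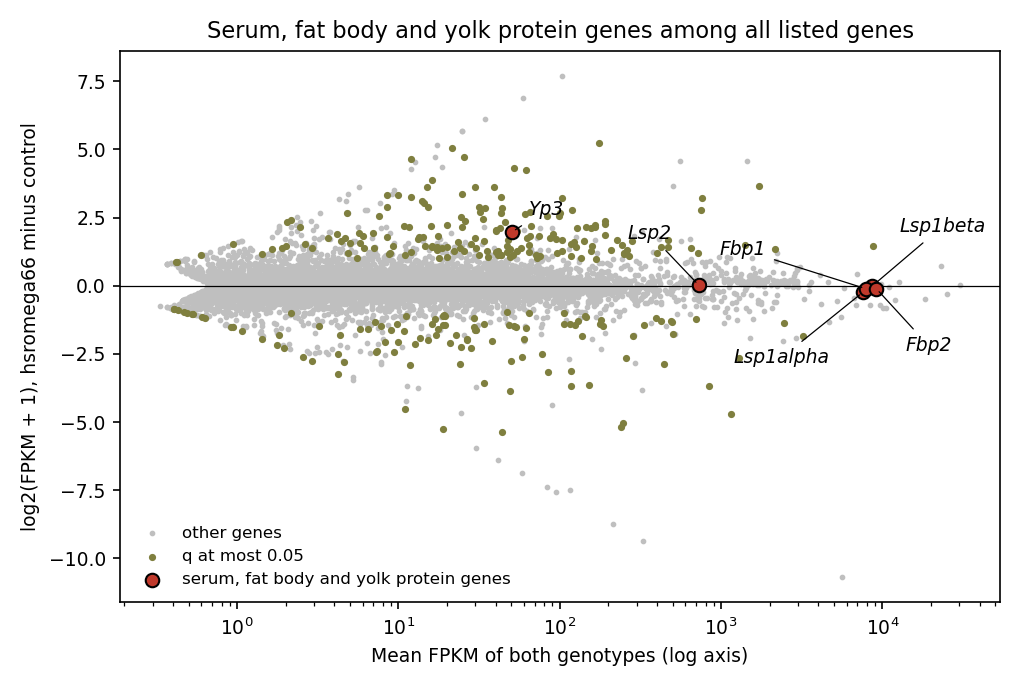
Each point is a gene, with its mean FPKM of both genotypes on a log axis against the difference of log2(FPKM + 1), hsromega66 minus control. Genes with a deposited q of at most 0.05 are dark, and the 6 listed genes are large. Yp3 lies at 1.97, and the other 5 lie between -0.24 and 0.017.

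Yp3 (FBgn0004047; X, plus strand, 13759546 to 13761547, dm6) was listed at 81.0 FPKM in hsromega66 larvae and 19.9 FPKM in control larvae. The ratio of these FPKM, without a pseudocount, was 4.06, and the log2 ratio on the log2(FPKM + 1) scale was 1.97, with a p of 5e-05 and a q of 0.00546 in the authors' deposited table, the smallest values that table holds, which 197 transcripts shared. Yp3 moved up to rank 1063 by level in hsromega66 larvae, against rank 3509 in control larvae. By log2 ratio it stood at rank 108 of 12116 genes, and among the 2664 genes with a mean between 20 and 100 FPKM, itself included, 38 had a ratio at least as high. Its single listed transcript matches the annotated form with the longer 3′ untranslated end, of 552 bases with the stop codon against 172 in the other form. The annotation gives both forms the same introns and the same protein.

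The level of Yp3 remained small beside the larval stores. It was 11.1% of that of Lsp2 in hsromega66 and 2.76% in control larvae. Of the sum of Lsp2 and its antisense gene it was 0.754% in hsromega66 and 0.195% in control larvae. It was 1.07% of that of Fbp1 in hsromega66 and 0.244% in control larvae. With Yp1 and Yp2 not analysed here, it is not known from these values whether the yolk protein genes moved together.

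Because yolk protein genes are known for sex-specific expression, the genes of sex determination and yolk uptake were set beside Yp3. Of 11 such genes, 10 were listed, and none passed by the deposited Cuffdiff q. None reached a Cuffdiff p of 0.05 before adjustment either, as 7.82% of all genes did. Their median log2 ratio was 0.055. dsx, which encodes Doublesex, stood at 3.11 FPKM in hsromega66 and 3.27 FPKM in control larvae. The male-specific dosage compensation RNA roX1 (lncRNA:roX1), with the lowest ratio, stood at 137 FPKM in hsromega66 and 159 FPKM in control larvae. Its partner roX2 (lncRNA:roX2) stood at 208 FPKM in hsromega66 and 182 FPKM in control larvae. The highest ratio was that of fru, a gene of male courtship circuits, at 8.75 FPKM in hsromega66 and 5.62 FPKM in control larvae. The yolk protein receptor gene yl was not analysed here.

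Gonad genes gave no call. Of 17 testis markers, 16 were listed, summing to 347.5 FPKM in hsromega66 and 365 FPKM in control larvae, with a median log2 ratio of -0.026. None passed by the deposited Cuffdiff q, and 0 reached a Cuffdiff p of 0.05. The extremes were tomb, at 2.54 FPKM in hsromega66 and 1.57 FPKM in control larvae, and twe, at 3.48 FPKM in hsromega66 and 4.79 FPKM in control larvae. Of 6 female germline markers, 3 were listed, with bam at 2.22 FPKM in hsromega66 and 1.09 FPKM in control larvae and orb at 2.28 FPKM in hsromega66 and 2.97 FPKM in control larvae. None of the 3 passed by the Cuffdiff q, and 0 reached a p of 0.05. The sex ratio of the larvae in each library was not analysed here, and its part in the level of Yp3 was not tested.

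Genes of fat body metabolism gave no call. Of 24 genes of lipid and sugar metabolism and lipid transport, 21 were listed, none passed the deposited Cuffdiff threshold, and their median log2 ratio was -0.0019. At a Cuffdiff p of at most 0.05 before adjustment, 1 was higher and 3 were lower, beside 4.67% of all genes that were higher and 3.2% that were lower. The higher one was Adh, alcohol dehydrogenase and thus a relative of Fbp2, at 3084 FPKM in hsromega66 and 1341 FPKM in control larvae (q = 0.183 in the authors' deposited table). The lower ones were named after their values were seen. Lsd-1, a lipid droplet coat protein, stood at 265 FPKM in hsromega66 and 413 FPKM in control larvae. The lipoprotein assembly factor Mtp stood at 30.2 FPKM in hsromega66 and 45.5 FPKM in control larvae, and the lipase gene Lip4 at 18.6 FPKM in hsromega66 and 25.6 FPKM in control larvae. The lowest ratio was that of GlyP, glycogen phosphorylase, at 228 FPKM in hsromega66 and 375 FPKM in control larvae.

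Of 21 genes for other secreted proteins of the haemolymph, 19 were listed, 1 rose and 1 fell, and the median log2 ratio was -0.086. For scale, the q threshold of 0.05 called 1.4% of all 12116 genes higher and 0.908% lower. Idgf3, a chitinase-like growth factor, rose to 156 FPKM in hsromega66 larvae, against 48.7 FPKM in control larvae (q = 0.00546 in the authors' deposited table). Tsf1, the iron carrier transferrin, fell to 279.9 FPKM in hsromega66 larvae, against 713 FPKM in control larvae (q = 0.0142 in the authors' deposited table). The fat body is a main source of Tsf1.

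The prophenoloxidases, enzymes of melanisation, are the nearest fly relatives of the hexamerins by protein fold. None of the 3 genes passed the deposited Cuffdiff threshold, and 1, PPO1, was lower at a Cuffdiff p under 0.05. PPO1 stood at 57.4 FPKM in hsromega66 and 110.4 FPKM in control larvae (p = 0.00300 and q = 0.160 in the authors' deposited table). PPO2 stood at 62.7 FPKM in hsromega66 and 78.1 FPKM in control larvae, and PPO3 at 1.23 FPKM in hsromega66 and 14.4 FPKM in control larvae. These genes are expressed in blood cells, unlike the hexamerins. The 9 listed haemocyte markers, which hold all 3, summed to 262 FPKM in hsromega66 and 400.2 FPKM in control larvae. All 9 lay below 0, as 6280 of all 12116 genes did, and none passed by the Cuffdiff q. At a Cuffdiff p of at most 0.05, 5 were lower, beside 3.2% of all genes. The part of these markers in the values of the prophenoloxidases was not tested.

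In the lists of ecdysone response, fat body transcription factor, amino acid sensing and autophagy genes, 1 gene was called. Over all genes, 2.31% were called by the deposited q. Of 17 ecdysone receptor and response regulators, 16 were listed and Eip78C, a nuclear receptor gene induced by ecdysone, rose to 48.8 FPKM in hsromega66 larvae, against 22.8 FPKM in control larvae (q = 0.0332 in the authors' deposited table). EcR, the hormone receptor, stood at 45.5 FPKM in hsromega66 and 51.0 FPKM in control larvae. The lowest ratio was that of br, which encodes the Broad transcription factors, at 112 FPKM in hsromega66 and 136 FPKM in control larvae. At a Cuffdiff p of at most 0.05, 2 genes of the list had a transcript that was higher, Eip78C and br, and 0 had one that was lower. Over all genes 4.67% had one that was higher and 3.2% one that was lower. The br transcript, 1 of 12 listed, stood at 1.51 FPKM in hsromega66 larvae and was listed at 0 in control larvae (q = 0.967 in the authors' deposited table). The median of this list was 0.22. Among 16 fat body transcription factors and amino acid sensing genes none passed the deposited Cuffdiff threshold, 1 was lower at a Cuffdiff p under 0.05, and the median was 0.058. That gene was mnd, an amino acid transporter, at 11.3 FPKM in hsromega66 and 13.5 FPKM in control larvae. The extremes were sug, at 4.55 FPKM in hsromega66 and 2.88 FPKM in control larvae, and pnr, at 5.55 FPKM in hsromega66 and 7.42 FPKM in control larvae. The GATA factor gene srp, needed to form the fat body, stood at 12.7 FPKM in hsromega66 and 13.1 FPKM in control larvae. Among 17 autophagy and tissue remodelling genes, which act when the larval fat body is broken up, none passed by the Cuffdiff q and 0 reached a p of 0.05. Their log2 ratios lay above 0 in 14 cases, beside 5836 of all 12116 genes, with a median of 0.17. The extremes were Mmp1, a matrix metalloproteinase gene, at 35.4 FPKM in hsromega66 and 26.6 FPKM in control larvae, and Atg8b at 7.36 FPKM in hsromega66 and 10.1 FPKM in control larvae.

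Levels of markers of other tissues differed between these larvae, with calls by the deposited q only among gut and salivary gland markers. These markers are given beside the fat body values. The 9 fat body markers, which include Fbp1 and Lsp2, summed to 10034 FPKM in hsromega66 and 10990.3 FPKM in control larvae, with a median log2 ratio of -0.11. Fbp1 alone gave 7578 FPKM of this in hsromega66 and 8174 FPKM in control larvae, and the median is its own ratio. These figures are thus largely those of Fbp1. None of the 9 passed by the Cuffdiff q and 2 were lower at a p of at most 0.05. They ran from Apoltp, at 8.36 FPKM in hsromega66 and 6.14 FPKM in control larvae, down to Lsd-1. All 11 gut markers were listed and 5 rose (Bace, Amy-d, Amy-p, Mal-A1 and alphaTry), with a median of 1.20 and sums of 7051 FPKM in hsromega66 and 5361 FPKM in control larvae. At a Cuffdiff p of at most 0.05, 8 were higher and 1 was lower, the protease gene Jon99Ciii, at 730.03 FPKM in hsromega66 and 1760.1 FPKM in control larvae (q = 0.0563 in the authors' deposited table). Over all genes, 4.67% were higher and 3.2% were lower at this p, and 1.4% rose by the deposited q. The 11 listed muscle markers had a median of -0.54 and no call, with 1 lower at a Cuffdiff p of at most 0.05, and summed to 6403 FPKM in hsromega66 and 9319 FPKM in control larvae. The 7 salivary gland markers had a median of -0.72 and summed to 44325 FPKM in hsromega66 and 49073 FPKM in control larvae. The 1 fall among them was that of the glue gene Sgs1, at 3.67 FPKM in hsromega66 and 10.7 FPKM in control larvae. Over all genes, 0.908% fell by the deposited q. At a Cuffdiff p of at most 0.05, 3 of the salivary gland markers were lower, Sgs1, Sgs3 and Sgs4, and 0 were higher. Sgs3 stood at 416 FPKM in hsromega66 and 863 FPKM in control larvae. Sgs7, which gave most of the list's sum, stood at 30486.5 FPKM in hsromega66 and 29798.4 FPKM in control larvae. Sgs8 stood at 7000.1 FPKM in hsromega66 and 7743.4 FPKM in control larvae. The ratio of Sgs7 was the 1 above 0 in this list. The haemocyte median was -0.76. None of the listed markers was at 0 in either genotype. The part of these differences in the rise of Yp3 was not tested.

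**Figure D5:**
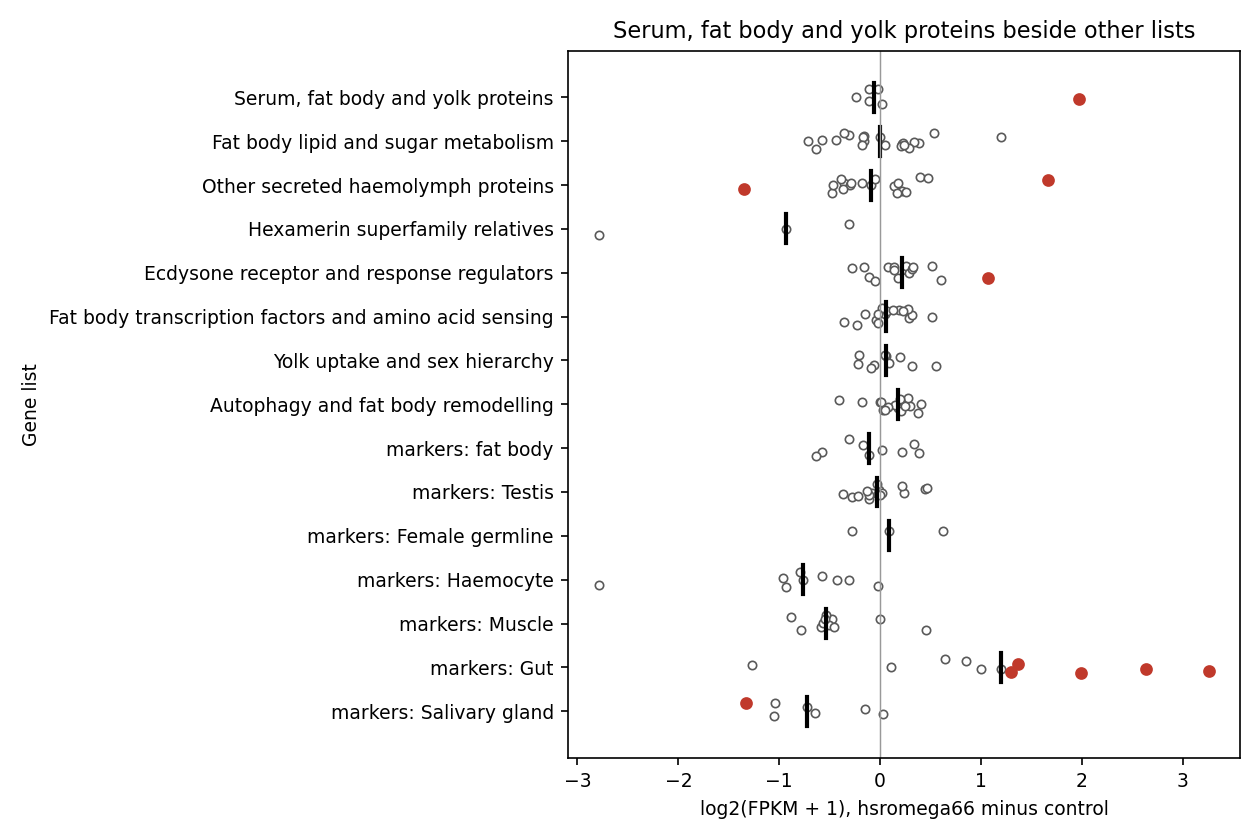
Each point is a listed gene, placed by its difference of log2(FPKM + 1), hsromega66 minus control. Filled points had a deposited q of at most 0.05 in at least 1 transcript, and black bars are list medians. The larval serum, fat body and yolk proteins have a median of -0.064, the gut markers 1.20 and the haemocyte markers -0.76.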

How the data were processed

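Per the labels' protocols, each library held RNA of 5 larvae, freed of ribosomal RNA by a kit that keeps strand and read in pairs. There were 2 libraries for each genotype. The submitters' processing notes name Cuffdiff 2.1.1, Cufflinks, TopHat and Bowtie and the build dm6. The sources used here do not give filters or strand settings.

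For each transcript the authors deposited an FPKM per genotype that pools its libraries. The deposited table adds a log2 ratio (hsromega66 over control) and a Cuffdiff p-value and q-value. Recomputing the q-values from the p-values by the Benjamini-Hochberg method left gaps of at most 5.0e-07. A gene's FPKM is the sum of its listed transcripts, a pseudocount of 1 was added for log2 ratios, and a gene was called where 1 transcript had a q of at most 0.05. No test could be computed from pooled values, and nothing says whether libraries came from separate cultures. The scripts were tested on simulated data.

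Gene models came from Ensembl release 115 (dm6 coordinates), matched by identifier for 12037 of 12116 genes. The genes and lists were chosen with earlier results of these data known. Genes named are the 9 of the report, the called, highest and lowest genes of each list, and a few more, among them asRNA:CR11538, dsx, EcR, srp and roX2, chosen after their values were seen. The alternatives tried were other pseudocounts, thresholds, an FPKM filter, scalings and the main transcript alone. The tools were Python 3.11.15, matplotlib 3.10.9, pandas 2.3.3 and numpy 2.4.6. Nucleotide and protein sequences were not used here.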

Additional observations from a re-analysis of the deposited data

How the results depend on the processing

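Yp3 remained the 1 gene called among the 6 listed at a q of at most 0.1, at a p of at most 0.05 before adjustment, with that p and a deposited log2 ratio, which has no pseudocount, of at least 2 in size, and among transcripts of at least 5 FPKM. Its log2 ratio ran from 1.97 to 2.03 over the pseudocounts and scalings. The median over the 6 genes was -0.064, and -0.0037 after both genotypes were rescaled to the same summed FPKM, which moved the median of all genes to 0.039. Near 0, signs depended on the setting: Lsp1beta was at -0.019 as reported and 0.041 after this rescaling, and Lsp2 at 0.017 as reported and -0.022 by its main transcript alone. By more than 0.1, 2 values moved, both of Fbp2: -0.23 by its main transcript alone and -0.22 without the transcript listed at 0 in control, which was an alternative chosen after seeing the data, as was the sum of Lsp2 with its antisense gene. No paired analysis was possible because the columns hold 1 pooled value per genotype, and for the same reason no library could be left out. Depth is unknown, so no counting error can be given for any level.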

Other observations

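The genes around the serum, fat body and yolk protein genes were looked at as a local check. Within 10 kb of the 9 genes, 26 other genes were listed, and none passed by the deposited Cuffdiff q, while 2 reached a Cuffdiff p of 0.05, a share near the 7.82% of all genes that did. The lower p of these was that of CG8100, 8168 bp from Fbp1, at 100.3 FPKM in hsromega66 and 71.6 FPKM in control larvae, with a p of 0.00115 and a q of 0.0783 in the authors' deposited table. The other was that of the cuticle protein gene Cpr11A beside Lsp1alpha, which stood at 10.99 FPKM in hsromega66 and 5.20 FPKM in control larvae (p = 0.00980 and q = 0.383 in the authors' deposited table). Of the 3 listed neighbours of Yp3, Rtc1 stood at 8.88 FPKM in hsromega66 and 8.31 FPKM in control larvae, rdgB at 7.20 FPKM in hsromega66 and 8.27 FPKM in control larvae, and Pdcd4 at 57.8 FPKM in hsromega66 and 48.0 FPKM in control larvae. All neighbours in this paragraph were named after their values were seen. Cht6, a chitinase gene that lies 148 bp from Yp2, stood at 7.37 FPKM in hsromega66 and 4.94 FPKM in control larvae.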
